A study of Arabidopsis thaliana with 3 samples.

Results

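Genes that build, modify or loosen the plant cell wall were examined in Arabidopsis thaliana plants with and without the transcription factor HY5. The genes were taken by symbol. A locus belonged to the set if its name in the platform annotation started with one of 13 prefixes, namely TBL, GH9, EXPA, EXPB, EXLA, CESA, CSL, XTH, GAUT, GATL, PME, IRX or FLA. That rule gave 44 loci, on 46 probes, of the 7234 loci with a named probe. They comprised 14 TBL, 8 GH9, 6 XTH, 4 EXPA, 4 CSL, 3 PME, 2 EXPB, 2 IRX and 1 EXLA genes. The other 4 prefixes (CESA, GAUT, GATL and FLA) had 0 named loci, so the cellulose synthases themselves were not analysed here. One of the 44, PMEAMT, has its prefix by chance: it encodes a phosphoethanolamine N-methyltransferase of lipid synthesis and no wall enzyme.

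The study hybridised RNA of the hy5-1 mutant, labelled Cy5, against RNA of the wild type Landsberg erecta (Ler), labelled Cy3, on 3 arrays, each given as a biological replicate. Plants of both genotypes were 3 weeks old, had been raised at 22 °C in days of 16 h light with 8 h dark, and spent 1 more day at 4 °C before harvest. Every sample was therefore in the cold, and no warm plants enter the comparison. The labels name plants with no organ and 1 mutant allele, and do not say whether the RNA of a replicate came from one plant or from a pool.

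Each value is a log2 ratio, and it is read throughout as hy5-1 over Ler. This direction is only likely. It rests on the labels, which put hy5-1 in the first channel with Cy5, and on the custom of dividing Cy5 by Cy3, while the sample titles put Ler first. If the ratio ran the other way, every "higher" and "lower" below would turn. All 3 arrays had the same dye assignment, so bias of a probe towards one dye and a difference between genotypes cannot be told apart. Array 2 stood apart from the others: over all named loci its values correlated at r = 0.512 with array 1 and at 0.504 with array 3, while arrays 1 and 3 correlated at 0.759 (across genes, which are not independent replicates). Over the 44 wall genes the same coefficients were 0.434, 0.350 and 0.875, and without XTH20 and XTH32 they were 0.423, 0.323 and 0.799.

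The primary wall of a growing plant cell is a network of cellulose microfibrils, cross-linking glycans such as xyloglucan, and pectin. Cellulose synthase-like (CSL) enzymes make backbones of the cross-linking glycans. Several TBL proteins, though not all, are known O-acetyltransferases, which attach acetyl groups to wall polysaccharides. Expansins (EXPA, EXPB) loosen the wall without cutting its polymers, XTH enzymes cut and rejoin xyloglucan, GH9 endoglucanases cleave glucan chains, and pectin methylesterases (PME) remove methyl groups from pectin. IRX15 and IRX15-L act in the synthesis of xylan, the main cross-linking glycan of secondary walls in xylem and fibres. HY5 is a bZIP factor that promotes light-dependent development, and seedlings that lack it have long hypocotyls, an organ that lengthens by wall expansion.

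Of the 44 genes, 2 were higher and 1 was lower in hy5-1 at an adjusted p under 0.05 in limma's moderated test over all 7234 loci. TBL39 and IRX15-L rose, XTH32 fell, and 41 genes did not pass. The share called was 6.82%, against 17.2% of all loci (1242 of 7234). In single directions, 7.88% of all loci were higher and 9.29% lower. Without adjustment, 16 wall genes, or 36.4%, had a p under 0.05, against 36.3% of all loci. A further 12 wall genes, 27.3%, had an adjusted p between 0.05 and 0.1, against 13.4% of all loci. Of these 12, 8 had a mean above 0, and so had 514 of the 966 loci in that range. No test of these counts was made.

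**Figure D1:**
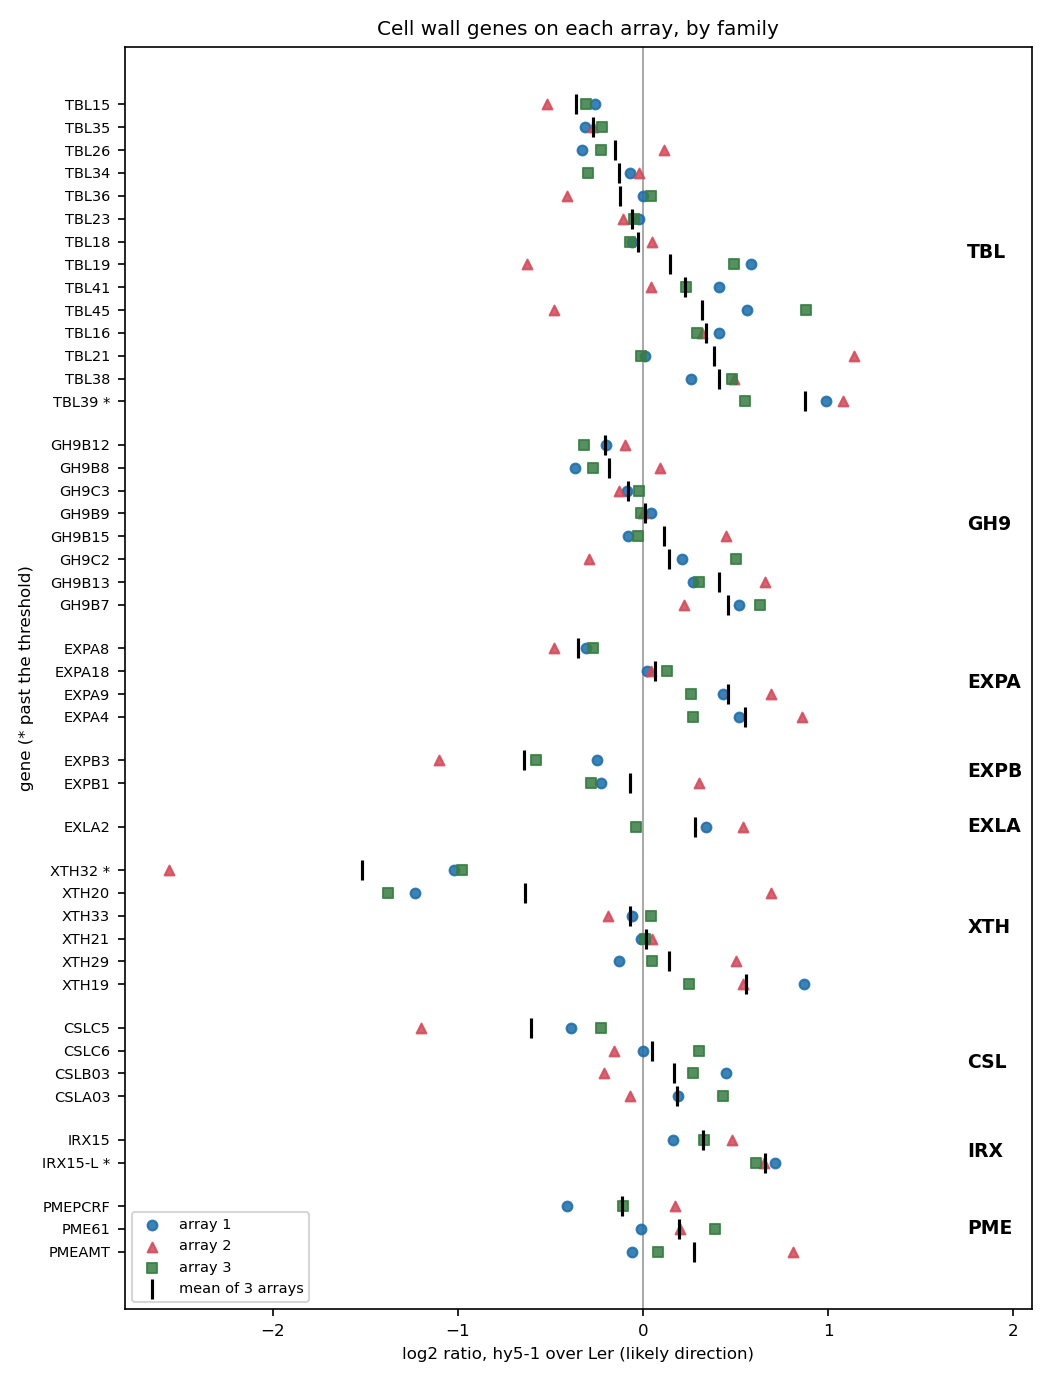
Log2 ratio of hy5-1 over Ler (horizontal axis, likely direction) for each of the 44 genes, grouped by family, with array 1 as circles, array 2 as triangles, array 3 as squares and the mean as a bar. An asterisk marks the 3 genes past the threshold. XTH32 lies left of all other genes with a mean of -1.52, and for XTH20, TBL19, TBL21 and TBL45 the triangle lies far from the other symbols.

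The median of the 44 mean log2 ratios was 0.09 and that of all loci 0.00. Means were above 0 in 26 wall genes and below 0 in 18, and 50.1% of all loci had a mean above 0. On single arrays the median over the wall genes was -0.01, 0.05 and 0.04. The median size of the mean, regardless of sign, was 0.22 in the wall genes and 0.22 over all loci. In 22 of the 44 genes the ratio had the same sign on all arrays, 12 above 0 and 10 below, against 54.5% of all loci. In location, size and sign the wall genes as a group thus lay close to the background of the arrays.

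Families differed in how their members were spread. IRX15 and IRX15-L both had positive ratios on all arrays, with a family median of 0.49. The family median was 0.26 for EXPA, 0.19 for PME, 0.11 for CSL, 0.06 for GH9, 0.06 for TBL, -0.03 for XTH and -0.36 for the pair of EXPB genes. The single EXLA gene stood at 0.28. XTH genes ranged most widely, with means from -1.52 to 0.55, and TBL genes came next, from -0.36 to 0.87. GH9 means ran only from -0.21 to 0.46. Medians close to 0 had no settled sign. That of TBL lay between -0.035 and 0.01 when single arrays were left out, that of GH9 between -0.02 and 0.05, and that of CSL between -0.01 and 0.23, while that of XTH was 0.08 without the loci of widest spread. With each array left out, the medians of IRX, EXPA, EXPB, XTH and PME and the value of the EXLA gene kept their sign. That of PME came as low as 0.01, and that of XTH lay between -0.05 and -0.02. Of the EXPB pair, EXPB1 had a mean of -0.07 over all arrays, but 0.01 without array 1 and 0.035 without array 3. All these medians are descriptions of 1 to 14 genes each, and the families were not tested against each other.

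**Figure D2:**
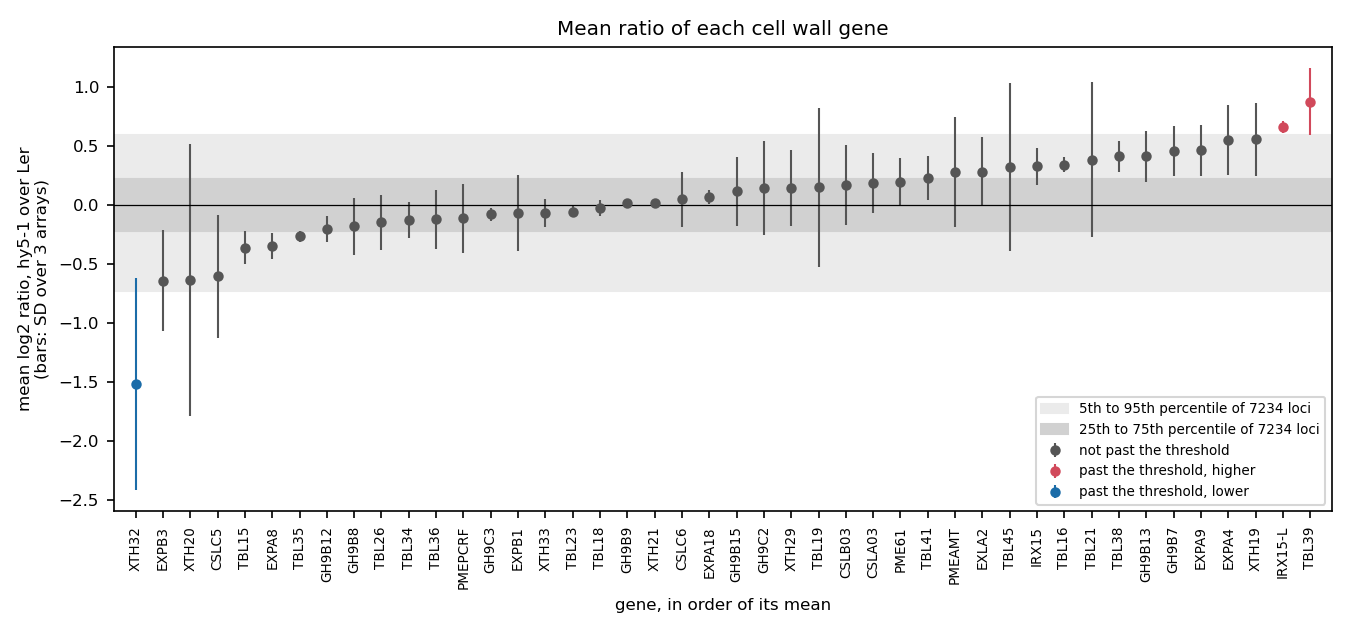
Mean log2 ratio of hy5-1 over Ler for the 44 genes in ascending order, with bars of 1 SD over 3 arrays, on bands that mark the 25th to 75th and the 5th to 95th percentile of the means of all 7234 loci. XTH32 lies below the outer band (lower bound -0.73), and IRX15-L and TBL39 lie above it (upper bound 0.59).

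Among the xylan genes, IRX15-L (AT5G67210) had the most even ratio of all 44 genes for its size. It was at 0.71, 0.65 and 0.61 on arrays 1, 2 and 3. The mean was 0.66 ± 0.05 (SD, n = 3), a 1.58-fold higher level in hy5-1 (limma adjusted p = 0.0204). When the arrays were first brought to an equal median absolute deviation ("scaled arrays" below), IRX15-L was the only wall gene that passed, beside 5.41% of all loci. Its adjusted p was then 0.0494, a value shared by 374 loci as the smallest of that fit. Its close relative IRX15 (AT3G50220), which acts redundantly with it in xylan synthesis, had 0.16, 0.48 and 0.33 on arrays 1, 2 and 3. That is a mean of 0.32 ± 0.16 (SD, n = 3), which did not pass (limma adjusted p = 0.0934). IRX15-L lay above IRX15 on each array, by 0.55, 0.17 and 0.28. Differences between members are given as descriptions, since an exact sign-flip test over 3 arrays cannot give a two-sided p below 0.25.

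The xylan-acetylating proteins TBL34 and TBL35, described below, had negative means. Neither passed (limma adjusted p = 0.435 and 0.0983), and IRX15 did not pass either. Of 14 marker symbols fixed for xylem and secondary walls, 0 had a named probe, and of 47 marker symbols for tissues and wall types in all only 2 did. Those were the root hair gene EXPA18, with a mean log2 ratio of 0.06, and VGD1, a pectin methylesterase of pollen tubes, at -0.03. The ratios carry no signal level, so the presence of these tissues in the sampled material was not checked. In RNA extracted in bulk, fewer cells of a type and less RNA per cell cannot be told apart.

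Among the TBL proteins, TBL39 (AT2G42570) had the highest mean of all 44 genes. Its ratios were 0.99, 1.08 and 0.55 on arrays 1, 2 and 3, all well above 0. The mean was 0.87 ± 0.28 (SD, n = 3), a 1.83-fold higher level in hy5-1, with a limma adjusted p of 0.0234. With scaled arrays it no longer passed (adjusted p = 0.063), although its mean there was 0.93. TBL38 (AT1G29050), the family's second highest, was at 0.26, 0.49 and 0.48 on the same arrays. Its mean of 0.41 ± 0.13 (SD, n = 3) was the closest of all wall genes to the threshold from outside (limma adjusted p = 0.0512). TBL16 (AT5G20680) was even across arrays, at 0.41, 0.32 and 0.29, with a mean of 0.34 and an adjusted p of 0.061.

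At the other end of the family stood TBL15 (AT2G37720), with -0.26, -0.52 and -0.31 on arrays 1, 2 and 3. Its mean was -0.36 ± 0.14 (SD, n = 3) and did not pass (limma adjusted p = 0.0665). As the ends of the family, TBL39 exceeded TBL15 by 1.24 ± 0.37 (SD, n = 3) on the log2 scale, and on each array by at least 0.86. They were picked by these same means, so a gap between them is built in. TBL39 was above 0 and TBL15 below 0 on each array, though TBL15 did not pass. TBL35 (AT5G01620) and TBL34, both known for acetylating xylan, had means of -0.27 and -0.13. TBL34 was at -0.07, -0.02 and -0.30 on arrays 1, 2 and 3 and did not pass (limma adjusted p = 0.435). TBL35 was measured by 2 probes. One gave -0.29, -0.16 and -0.07 on the arrays and the other -0.34, -0.38 and -0.37, so both were below 0 throughout, and their average did not pass (limma adjusted p = 0.0983). TBL23 and TBL26, which belong to the group of mannan O-acetyltransferases, had means of -0.06 and -0.15, and TBL26 had both signs among its arrays. In total 1 of 14 TBL genes rose and 0 fell, 7.14% called against 17.2% of all loci. Ratios were above 0 on all arrays in 4 and below 0 in 4, and 6 had mixed signs.

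XTH32 (AT2G36870) was the furthest of all wall genes from equality. Its ratios were -1.02, -2.56 and -0.98 on arrays 1, 2 and 3, low on each and furthest down on array 2. The mean was -1.52 ± 0.90 (SD, n = 3), a 2.87-fold lower level in hy5-1, with a limma adjusted p of 0.0423. Of the 3 called wall genes it alone differed at least 2-fold, and 2.09% of all loci were both called and that far apart. Without array 2 its mean was -1.0 and it still passed, at an adjusted p of 0.0305. That value was shared by 103 loci as the smallest of that fit, in which 19.1% of all loci passed. With scaled arrays XTH32 did not pass (adjusted p = 0.116), although its mean there was -1.73. Nor did it pass without array 1 or without array 3 (limma adjusted p = 0.191 and 0.195), where 0 of all loci passed. An unmoderated one-sample test over the 3 arrays gave XTH32 an unadjusted p of 0.0999. XTH32 belongs to the branch of the family in which hydrolysis of xyloglucan has been shown.

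XTH20 (AT5G48070) lay close to XTH32 on arrays 1 and 3 but not on array 2. Its ratios were -1.23, 0.69 and -1.38, and the mean of -0.64 ± 1.15 (SD, n = 3) did not pass (limma adjusted p = 0.352). On arrays 1 and 3 the distance between XTH20 and XTH32 was -0.21 and -0.40, whereas on array 2 XTH20 stood 3.25 above XTH32. Without array 2, XTH20 was called lower at a mean of -1.30 and an adjusted p of 0.0305, the same shared smallest value as for XTH32. XTH19 (AT4G30290), a close homologue of XTH20, was above 0 on all arrays, at 0.87, 0.54 and 0.25. Its mean was 0.55 ± 0.31 (SD, n = 3; limma adjusted p = 0.0581). XTH19 lay above XTH32 by 1.89, 3.10 and 1.23 on arrays 1, 2 and 3. Its differences from the closer homologue XTH20 were 2.1, -0.15 and 1.63. XTH19 and XTH32 are the ends of the family by these same means, so a gap between them is built in, and XTH19 did not pass. XTH19 lay close to XTH20 on array 2 alone.

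The other XTH genes were close to 0. XTH21, known from root growth, had a mean of 0.02 with an SD of 0.03, the membrane-anchored XTH33 had -0.07, and XTH29 had 0.14. XTH29 was at -0.13, 0.50 and 0.05, so it stood well above 0 on array 2 alone. The family thus had 1 of 6 genes lower, 0 higher and 5 that did not pass, 16.7% called against 17.2% of all loci.

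Among expansins 0 of 7 genes passed, 0 higher and 0 lower, against 17.2% of all loci called. An adjusted p between 0.05 and 0.1 was found for 4 of them, 57.1% against 13.4% of all loci. The same 4 had an unadjusted limma p under 0.05, against 36.3% of all loci. EXPA4 (AT2G39700) was at 0.52, 0.86 and 0.27 on arrays 1, 2 and 3, a mean of 0.55 ± 0.30 (SD, n = 3; limma adjusted p = 0.0555). EXPA9 (AT5G02260) followed the same order of arrays, at 0.43, 0.69 and 0.26, with a mean of 0.46 and an adjusted p of 0.0573. EXPA8 (AT2G40610) had only negative ratios, -0.31, -0.48 and -0.27, and a mean of -0.35 ± 0.11 (SD, n = 3) and an adjusted p of 0.0644. Alpha-expansins therefore stood on both sides of 0, though none passed. The highest, EXPA4, lay above the lowest, EXPA8, by 0.83, 1.34 and 0.54 on the 3 arrays, a gap built in by picking the ends. Each of these 3 genes was furthest from 0 on array 2. EXPA18 was at 0.02, 0.04 and 0.13.

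Of the beta-expansins, EXPB3 (AT4G28250) was below 0 throughout, at -0.25, -1.10 and -0.58. Its mean of -0.64 ± 0.43 (SD, n = 3) was the second lowest of the 44 genes, with a limma adjusted p of 0.0664. EXPB1 was at -0.23, 0.30 and -0.28, and so had the other sign on array 2. EXLA2, an expansin-like protein for which wall loosening is not established, had 0.34, 0.54 and -0.04.

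The GH9 endoglucanases also gave 0 of 8 genes past the threshold, 0 higher and 0 lower, with 2 at an unadjusted limma p under 0.05. GH9B7 (AT1G75680) was highest, with 0.52, 0.22 and 0.63 on arrays 1, 2 and 3 and a mean of 0.46 ± 0.21 (SD, n = 3; limma adjusted p = 0.0571). GH9B13 (AT4G02290) was likewise above 0 throughout, at 0.27, 0.66 and 0.30, with an adjusted p of 0.0715. The lowest mean was that of GH9B12 (AT2G44570), at -0.21 ± 0.11 (SD, n = 3). GH9B9, which lies close to GH9B12 with 2 genes between them (gene order of assembly TAIR10.1), had 0.04, 0.00 and -0.01. The class C enzymes, which carry a carbohydrate-binding module, were GH9C2 at 0.14 and GH9C3 at -0.08, and GH9C2 was negative on array 2 alone (0.21, -0.29 and 0.50).

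The CSL genes had 0 of 4 members past the threshold, 0 higher and 0 lower, with 1 at an unadjusted limma p under 0.05. CSLC5 (AT4G31590), of the group that makes the glucan backbone of xyloglucan, was below 0 on all arrays at -0.39, -1.20 and -0.23. Its mean of -0.61 ± 0.52 (SD, n = 3) did not pass (limma adjusted p = 0.105). CSLC6, of the same group, was at 0.00, -0.16 and 0.30, so CSLC5 lay below it by 0.39, 1.04 and 0.53 on the arrays (signed differences of -0.39, -1.04 and -0.53). CSLA03, a member of the mannan synthase group, had 0.19, -0.07 and 0.43. CSLB03 was measured by 2 probes, which gave 0.44, -0.17 and 0.20 and 0.45, -0.25 and 0.34, and thus returned the same pattern over the arrays. All 4 CSL genes were lower on array 2 than on the mean of arrays 1 and 3, as were 3676 of all 7234 loci. All 3 PME genes were higher there.

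Of the genes with a PME symbol, 0 of 3 passed, 0 higher and 0 lower, against 17.2% of all loci called. All 3 had both signs among their arrays. None had an unadjusted limma p under 0.05, against 36.3% of all loci. PMEPCRF was at -0.41, 0.17 and -0.11, and PME61 at -0.01, 0.20 and 0.39. PMEAMT, the methyltransferase that is no wall enzyme, was at -0.06, 0.81 and 0.08. Leaving it out changed the family median from 0.19 to 0.04 and left the counts of called genes at 2 higher and 1 lower.

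Several genes owed their spread to array 2. In 5 of 44 wall genes, or 11.4%, array 2 differed from the mean of arrays 1 and 3 by more than 1 on the log2 scale, against 3.41% of all loci. These were XTH20 (by 2.00), XTH32 (by -1.56), TBL45 (by -1.20), TBL19 (by -1.17) and TBL21 (by 1.14). The list mixes directions, and over all wall genes array 2 was the higher in 21 and the lower in 23. Median departures regardless of sign were 0.35 in wall genes and 0.22 over all loci.

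TBL19 (AT5G15900) and TBL21 (AT5G15890) lie side by side, with 0 annotated genes between them. They lay on opposite sides of 0 on array 2. TBL19 was at 0.58, -0.63 and 0.49, and TBL21 at 0.01, 1.14 and -0.01. TBL45 (AT2G30010) resembled TBL19, at 0.56, -0.48 and 0.88. None of the 3 passed over 3 arrays, with limma adjusted p-values of 0.751, 0.353 and 0.470.

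**Figure D3:**
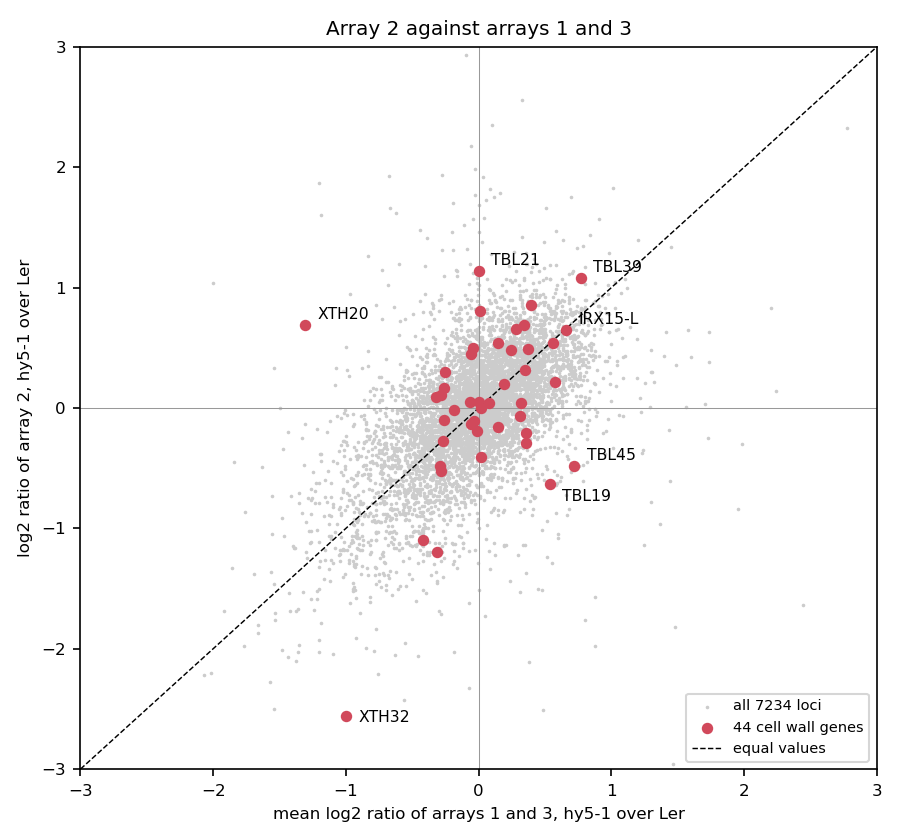
Log2 ratio on array 2 (vertical axis) against the mean log2 ratio of arrays 1 and 3 (horizontal axis), hy5-1 over Ler, for all 7234 loci in grey and the 44 wall genes in red, with a dashed line of equal values; 2 loci lie outside the axes. XTH20 and TBL21 lie far above the line, and XTH32, TBL45 and TBL19 far below it.

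The calls depended on which arrays entered. On arrays 1 and 3 alone, limma called 7 wall genes, 5 higher and 2 lower, or 15.9%. Of all loci 19.1% passed there, 655 higher and 725 lower. These 7 were TBL39, IRX15-L and XTH32 and, besides them, GH9B7, TBL19 and TBL45 as higher and XTH20 as lower. Without array 1 it called 0 wall genes and 0 loci in all (0.0%), as it did without array 3. In both of those fits 8 wall genes, 18.2%, had an unadjusted p under 0.05. Over all loci there were 1613 without array 1 (22.3%) and 1585 without array 3 (21.9%). When the tenth of loci with the widest spread was left out, 13 of the 37 wall genes that stayed were called, 35.1% against 33.1% of all remaining loci. That filter acts on the same spread that the test uses. It dropped XTH32 itself, and it brought 11 of the 12 genes between 0.05 and 0.1 past the threshold, all but TBL35.

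**Figure D4:**
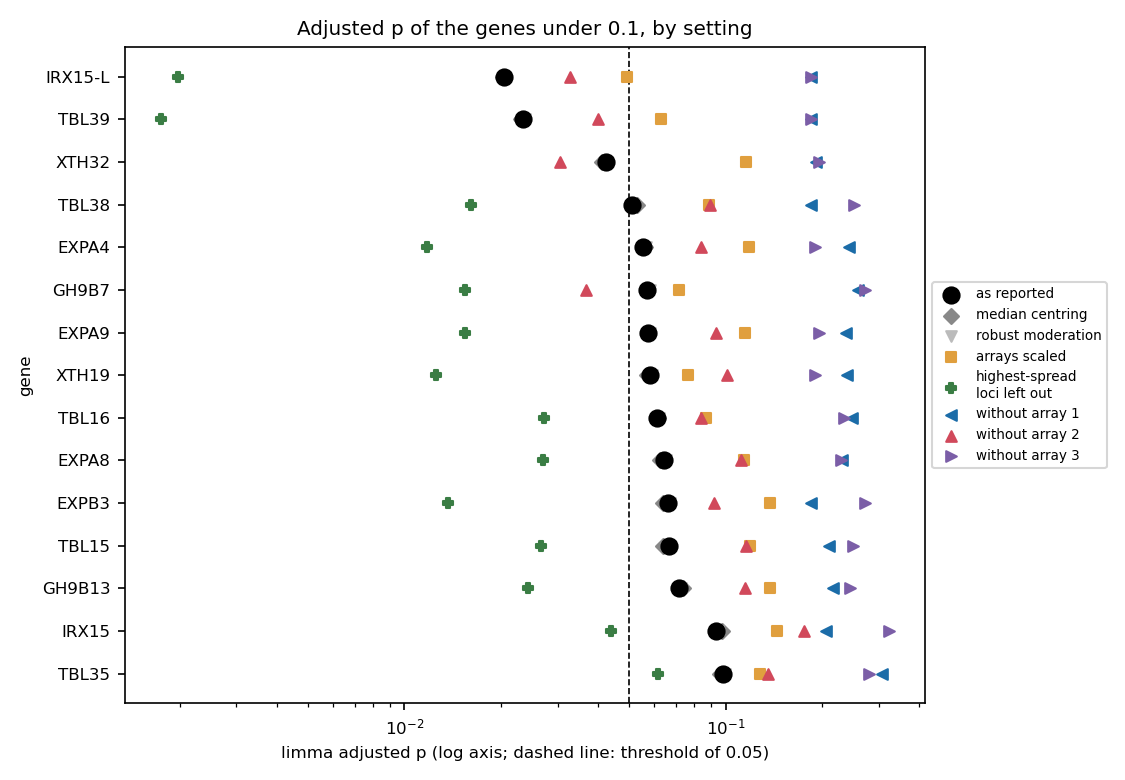
Limma adjusted p (log axis) of the 15 wall genes with a value under 0.1, with the reported fit as large black circles and 7 other settings as smaller symbols; the dashed line is the threshold of 0.05. The crosses of the fit without the widest-spread loci, where XTH32 was not tested, lie furthest left, and all symbols without array 1 or without array 3 lie right of the line.

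Other wall genes outside the prefixes were sought by symbol alone, and few symbols matched. Loci that carry only a locus code as their name were not searched, so wall genes among them are not counted. Of 5 companion lists, those of polysaccharide and nucleotide sugar enzymes and of secondary wall regulators matched 0 loci by symbol. The remaining lists had 7 symbols, 2 of which (PRP39 and PRP39-2) are splicing factors that share only their letters with proline-rich wall proteins. In either direction 0 of the 7 passed, against 17.2% of all loci called. An unadjusted limma p under 0.05 was reached by 2, against 36.3% of all loci. Both lignin genes had positive ratios on all arrays. CCR2 (AT1G80820), a cinnamoyl-CoA reductase, was at 0.34, 0.92 and 0.29 with a limma adjusted p of 0.0776, and HCT (AT5G48930), an acyltransferase of monolignol synthesis, was at 0.26, 0.25 and 0.53 with 0.0797. COB, a membrane-anchored protein that orients cellulose microfibrils, had a mean log2 ratio of 0.16, the beta-galactosidase BGAL16 had 0.23, and the polygalacturonase ADPG1 had 0.00.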

How the data were processed

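The authors deposited, per the labels, one value per feature and array, taken here as a log2 ratio of Cy5 over Cy3. The base was assumed from the range (-4.03 to 5.09). What normalisation was applied and which channel is the numerator is not stated per the labels. Each array had 45220 features, centred near 0, with no intensities, so signal over background is unknown and the number of arrays limits the precision.

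Probe numbers of the platform annotation were converted to value rows by a fixed formula for a grid of 266 columns and 170 rows. An earlier session found that order from these values, and every gene name rests on it. Under it, probes of the 7 loci with 10 or more probes had a within-locus variance of 0.0345 of the total, against 0.978 with numbers as given. For 132 loci with fewer probes the ratios were 0.799 and 0.860, which separates the orders poorly. All 7440 named probes matched RefSeq (TAIR10.1).

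Probes were averaged per locus. Means were tested against 0 with limma (version 3.58.1, R 4.3.3; lmFit, eBayes, prior degrees of freedom 3.04), with Benjamini-Hochberg adjustment over 7234 loci and a threshold of 0.05. The procedure was tested on simulated ratios, drawn independently for each array with the same spread of a locus on every array. Those hold no array that stands apart, no unequal array spread and no dye bias, so they cannot test for these. Symbols named were members past the threshold, the ends of each family, the 5 largest departures of array 2 each way, the 5 most even members, members with 2 probes, and companion genes past the threshold; further members were named after their values were seen. Members and lists were chosen with earlier results of these data known. Separate cultures or plants are stated only as "biological replicate". A planned motif search was not run.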

Additional observations from a re-analysis of the deposited data

How the results depend on the processing

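Median centring, robust moderation and the fit per probe left the 3 wall genes called, and also the counts over all loci within 1.5 times. Centring and the fit per probe could change these 3 calls little by construction. The array medians were 0.01, 0.00 and 0.00, and each of the 3 genes has 1 probe. Calls of wall genes (all, higher, lower) were 1, 1 and 0 with scaled arrays, where all loci gave 391, 166 and 225. They were 0, 0 and 0 with an unmoderated statistic (all loci 3, 2 and 1), where 7 wall genes, 15.9%, and 1627 loci, 22.5%, had an unadjusted p under 0.05. They were 13, 10 and 3 without the loci of widest spread (all loci 2156, 1077 and 1079), which is a smaller set of tested genes by construction. A 2-fold minimum left 1, 0 and 1 (all loci 151, 18 and 133). Probe numbers as given left 3, 3 and 0 (all loci 491, 242 and 249), with other genes called (CSLA03, IRX15 and PMEPCRF). With single arrays omitted, wall genes called numbered 0 to 7, 0 to 5 and 0 to 2, and loci 0 to 1380, 0 to 655 and 0 to 725, with 0 by limma without replicate 1 or without replicate 3. There 8 wall genes, 18.2%, had an unadjusted p under 0.05, against 22.3% of all loci without replicate 1 and 21.9% without replicate 3. The 7 companion genes had 0 calls in each setting run.

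The median over wall genes, 0.09, became 0.05 with scaled arrays and 0.0083 with numbers as given, and lay between 0.0125 and 0.05 when single arrays were omitted. That of TBL, 0.06, became 0.01 with scaled arrays, -0.0267 per probe, -0.06 without the loci of widest spread and -0.0167 with numbers as given, and lay between -0.035 and 0.01 when single arrays were omitted, so its sign was not settled. When single arrays were omitted, that of GH9, 0.06, lay between -0.02 and 0.05, that of CSL, 0.11, between -0.01 and 0.23, and the value of EXLA2, 0.28, between 0.15 and 0.44. That of XTH, -0.03, was 0.0783 without the loci of widest spread and 0.055 with numbers as given. With numbers as given the median was 0.08 for EXPA, -0.0017 for EXPB, 0.4167 for PME and 0.1933 for IRX. That of PME was 0.0383 without the loci of widest spread and also without PMEAMT, and 0.01 to 0.295 when single arrays were omitted. With numbers as given IRX15-L turned to -0.2933, XTH32 to 0.1267 and PMEPCRF to 0.52. Numbers as given read genes from other features than the formula does, so those values belong to other spots. The fit without the loci of widest spread dropped CSLC5, PMEAMT, TBL19, TBL21, TBL45, XTH20 and XTH32, so its medians cover fewer genes. The cause of the other changes was not tested. The order of the rows was taken from the values themselves, so the row numbers as given remain a formal alternative for every name. No paired analysis was possible because there is 1 group of arrays and no second group shares its numbers. The test of ratios against 0 already sets the genotypes against each other within an array.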
